A study of Mus musculus with 12 samples.

Results

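Broad H3K4me3 domains that carry no Polycomb mark were examined in mouse intestinal organoids treated with AA or with vehicle. The domains were the H3K4me3 peaks of 6000 bp or more on chromosomes 1 to 19 that overlapped no peak of H3K27me3, the mark left by Polycomb. Both peak sets came from the caller SEACR. The rule used the width and position of the peaks and not the difference between treatments. Both treatments share the same peaks of a mark. Whether a domain reached its width through one treatment only was not tested. The rule kept 2339 domains, which were 72.6% of the 3222 broad H3K4me3 peaks and 4.11% of the 56934 H3K4me3 peaks on these chromosomes. The other 883 broad peaks overlapped an H3K27me3 peak.

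The organoids were grown from isolated crypts in Matrigel with EGF, Noggin, R-spondin and the GSK3 inhibitor CHIR-99021. AA, which the series title gives as arachidonic acid, was applied at 25 µM for 6 days, and vehicle was applied for the same time. Histone marks were mapped by CUT&RUN, where a nuclease tethered to the antibody releases the marked DNA for sequencing, with 2 libraries per treatment for each of H3K4me3, H3K27ac and H3K27me3. The design text names organoids with a Ptger knockout and an arm treated with a PGE2 analogue, whereas the labels used here give neither. The genotype of the organoids is therefore not known here, nor whether both groups share it. Vehicle libraries appear as control in the deposited table. No source states whether the paired libraries of a treatment are separate cultures, so p-values measure only the spread between libraries, which may be technical.

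H3K4me3 is written at active gene starts by the SET1 and MLL methyltransferase complexes, largely over CpG islands. At most genes it forms a narrow peak around the start. At a minority it spreads over several kilobases into the gene, and in many tissues such broad domains lie on genes that define the cell's identity and on tumour suppressor genes, and they are usually also rich in H3K27ac, the acetyl mark of active promoters and enhancers.

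The domains held 46 miRNA hairpins, in 37 domains, of the 919 hairpins that the RefSeq table places on chromosomes 1 to 19 of GRCm38.p6. Among them were the genes of miR-200a, miR-200b and miR-429, which maintain epithelial character by repressing the ZEB factors, and both copies of the miR-192, miR-194 and miR-215 group, which is abundant in gut epithelium. These were singled out after their values were seen. Their mature sequences are shown with the seed, bases 2 to 8 from the 5′ end, in capitals, because the shared seeds show which of these miRNAs belong together.
miR-200b-3p: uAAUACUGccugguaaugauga
miR-429-3p: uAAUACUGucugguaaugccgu
miR-200a-3p: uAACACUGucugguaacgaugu
miR-192-5p: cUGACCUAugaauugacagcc
miR-215-5p: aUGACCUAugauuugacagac
miR-194-5p: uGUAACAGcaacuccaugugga
MiR-200b and miR-429 share the seed AAUACUG, while miR-200a has AACACUG. MiR-192, from chromosome 19, and miR-215, from chromosome 1, share the seed UGACCUA. One mature miR-194 comes from both chromosomes.

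Gene starts inside the domains lay mostly in CpG-rich DNA. Of the promoters in the RefSeq table, taken as 250 bases before to 50 after the start, 2502 lay in the domains. Their median CpG count was 25 and their median GC share 64.3%, against 14 and 57% over all 20085 promoters on the same chromosomes. GGGCGG on either strand, the GC box bound by SP and KLF factors, was present in 70.3% of the domain promoters and 47.0% of all promoters, while TATAAA, the TATA box, was present in 7.55% and 12.7%. A GC box also adds a CpG. The other motifs searched on both strands were CCAAT (NF-Y), in 36.9% of the domain promoters and 38.1% of all, GGAAGT (ETS), in 28.0% and 25.0%, GGAATG (TEAD), in 10.7% and 13.4%, TGANTCA (AP-1), in 4.92% and 7.06%, TGACGTCA (CREB), in 3.04% and 2.30%, CAAAGTCCA (HNF4), in 0.360% and 0.463%, and TTTATG (CDX), in 5.12% and 9.64%. No motif holds another in full. Promoters in domains whose H3K4me3 was higher with AA had a median of 21 CpG over 138 promoters, those in domains that were lower had 6.5 over 6 promoters, and those in the other domains had 25 over 2352 promoters. The 250 bases before the start are shown for the 5 called domains with the largest change in H3K4me3 that hold a start in the table, leaving out starts of predicted genes (Gm and Rik names), and for the widest domain with a start, Rgmb. Capitals mark each CpG. The sequences are from RefSeq on GRCm38.p6, 5′ to 3′ along the gene. Mab21l3 lies at chr3:101836224-101836473 on the minus strand, Gpam at chr19:55127239-55127488 on the minus strand, Cyp2c55 at chr19:39006769-39007018 on the plus strand, Capg at chr6:72549397-72549646 on the plus strand, Tnk2 at chr16:32672904-32673153 on the plus strand and Rgmb at chr17:15826567-15826816 on the minus strand.
Mab21l3: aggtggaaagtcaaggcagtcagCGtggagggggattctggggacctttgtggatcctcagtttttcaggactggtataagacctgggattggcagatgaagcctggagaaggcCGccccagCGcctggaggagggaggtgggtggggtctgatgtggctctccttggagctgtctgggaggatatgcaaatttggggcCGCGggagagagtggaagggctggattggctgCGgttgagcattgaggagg
Gpam: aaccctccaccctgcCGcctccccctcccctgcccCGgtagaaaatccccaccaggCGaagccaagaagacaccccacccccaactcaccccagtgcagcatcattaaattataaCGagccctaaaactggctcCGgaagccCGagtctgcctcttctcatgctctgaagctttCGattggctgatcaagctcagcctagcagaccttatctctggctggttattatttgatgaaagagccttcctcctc
Cyp2c55: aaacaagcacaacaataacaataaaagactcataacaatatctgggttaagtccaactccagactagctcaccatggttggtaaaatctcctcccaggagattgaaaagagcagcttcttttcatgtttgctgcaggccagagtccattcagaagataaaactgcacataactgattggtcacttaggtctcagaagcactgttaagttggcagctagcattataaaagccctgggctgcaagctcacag
Capg: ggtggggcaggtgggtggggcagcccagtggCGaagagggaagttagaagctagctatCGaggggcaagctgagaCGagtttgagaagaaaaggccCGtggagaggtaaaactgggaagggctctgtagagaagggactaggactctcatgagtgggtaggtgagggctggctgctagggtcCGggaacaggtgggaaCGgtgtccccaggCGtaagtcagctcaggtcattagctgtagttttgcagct
Tnk2: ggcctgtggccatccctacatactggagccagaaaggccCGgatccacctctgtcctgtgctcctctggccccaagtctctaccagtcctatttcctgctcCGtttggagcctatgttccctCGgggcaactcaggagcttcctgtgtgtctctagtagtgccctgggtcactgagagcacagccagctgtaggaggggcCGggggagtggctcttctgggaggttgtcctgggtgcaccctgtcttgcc
Rgmb: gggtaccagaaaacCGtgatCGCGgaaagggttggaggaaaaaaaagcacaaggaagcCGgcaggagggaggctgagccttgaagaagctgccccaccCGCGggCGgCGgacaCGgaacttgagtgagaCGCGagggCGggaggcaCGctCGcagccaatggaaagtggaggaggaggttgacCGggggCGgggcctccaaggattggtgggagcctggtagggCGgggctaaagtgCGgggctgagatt
The first 3 belong to domains that were lower with AA and hold 6, 7 and 0 CpG. Capg and Tnk2 belong to domains that were higher with AA and hold 7 and 4 CpG. Rgmb, whose domain did not pass the test, holds 18 CpG. Of the motifs searched, Cyp2c55 alone among the 6 holds the TATA box. The NF-Y letters, on either strand, are in the windows of Mab21l3, Gpam, Cyp2c55 and Rgmb.

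The deposited value is a peak score, a mean coverage per base that the authors scaled by 1 factor per library. With that factor removed, the median coverage in the domains was 8.71 and 8.04 in the AA libraries and 14.9 and 9.79 in the vehicle libraries for H3K4me3, so the AA libraries were the shallower ones. For H3K27ac it was 3.82 and 4.56 with AA and 3.03 and 3.86 with vehicle. The labelled tissue was checked against its markers. All 8 epithelial markers carried an H3K4me3 peak at a gene end, with mean scores between 0.581 and 1.51. Of the markers of other cells, 5 of 13 fibroblast genes, 6 of 12 blood cell genes and 2 of 11 endothelial and glial genes carried one, with highest scores of 0.545 at Col1a1, 0.633 at Cd79a and 0.197 at Kdr. The summed score of the epithelial markers was 8.54 and 7.44 with AA and 7.02 and 6.73 with vehicle. That of the fibroblast list was 1.11 and 0.917 with AA and 1.39 and 1.47 with vehicle. The blood cell list summed to 2.267 and 1.928 with AA and 1.873 and 2.002 with vehicle. The endothelial and glial list summed to 0.328 and 0.322 with AA and 0.329 and 0.259 with vehicle. For the blood cell list and the endothelial and glial list the groups overlapped. The part of the cell makeup in the results was not tested. In these bulk samples a mark carried by fewer cells and a weaker mark in each cell cannot be told apart.

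The domains ranged in width between 6001 and 30414 bp, with a median of 7434 bp, and covered 19.2 Mb in all. Widths of 10000 bp or more were reached by 383 domains and of 15000 bp or more by 65. Width and level were nearly unrelated, with a Spearman rho of 0.09 over the 2339 domains, which share the same 4 libraries. The 5 narrowest domains were 6001 to 6006 bp wide and had scores of 0.350 to 0.924 and H3K4me3 changes of -0.06 to 0.38. The 5 peaks just under the limit, 5995 to 5998 bp wide, had scores of 0.233 to 1.01 and changes of -0.30 to 0.40.

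**Figure D1:**
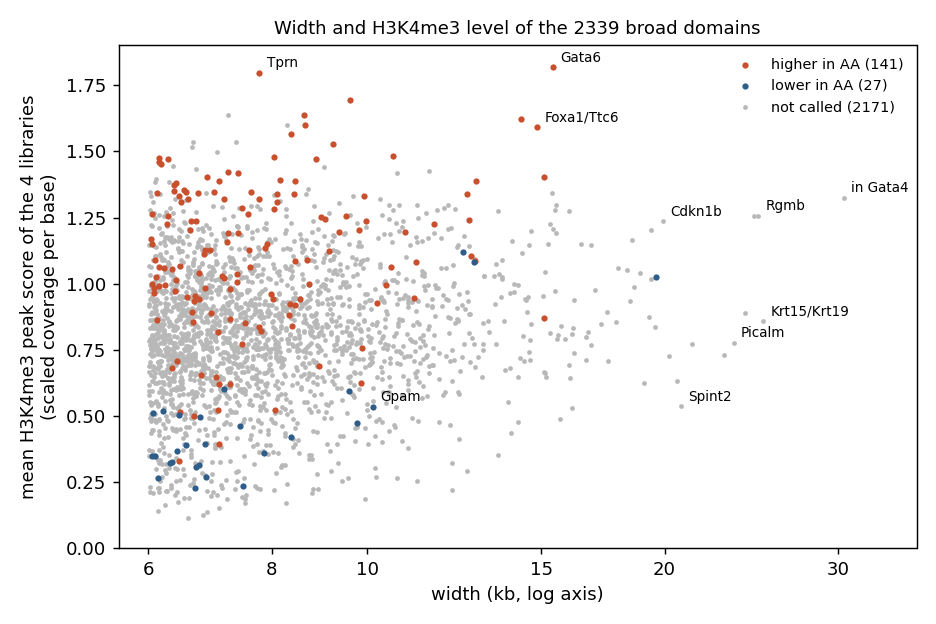
Width (kb, log axis) against the mean H3K4me3 peak score of the 4 libraries for each of the 2339 domains; colours mark domains called higher (141) or lower (27) with AA. The widest domain lies in Gata4 at 30414 bp, and the highest scores belong to Gata6 and Tprn.

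A protein-coding gene end lay inside or within 1 kb of 2038 domains (87.1%). Gene ends here are both outer ends of a gene and any of its starts in the promoter table. Another 178 domains lay in a gene body and 123 between genes, and the median distance of these 301 to the nearest outer end was 17220 bp. In 1184 domains exactly 1 coding gene had its start, and there the mark reached a median of 2171 bp upstream and 5086.5 bp downstream of the start. It reached farther downstream in 1044 of them (88.2%). Ends of 2 or more coding genes lay in 553 domains (23.6%). Genes with an end in or near a domain numbered 2722, or 13.2% of the 20665 coding genes on these chromosomes.

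The widest domain, 30414 bp at chr14:63227427-63257840 in mm10, lay in the body of Gata4, which encodes a transcription factor of the proximal intestine. It scored 1.57 and 1.29 in the AA libraries, against 1.22 and 1.22 in the vehicle libraries, so the groups lay apart, but the change of 0.22 ± 0.12 (log2, SE) did not pass the test. The domain over Krt15 and Krt19, epithelial keratins, was 25163 bp wide and scored 0.941 and 0.810 with AA, against 0.830 and 0.855 with vehicle, with groups that overlapped. Rgmb, a BMP co-receptor, followed at 24891 bp, and a domain 48111 bp from the nearest coding gene end, that of Ppara, at 24631 bp. Ctnnd1 (p120-catenin of adherens junctions, 22973 bp), Epb41l4b (a membrane-cytoskeleton linker, 21347 bp), Spint2 (an epithelial serine protease inhibitor, 20776 bp), Picalm (a clathrin adaptor, 23495 bp), Ero1a (an oxidase of the endoplasmic reticulum, 20567 bp) and Cox20 with Hnrnpu (24143 bp) made up the 10 widest. None of these 10 passed the test in either direction. Their H3K4me3 changes lay between -0.10 at Picalm and 0.38 at the domain near Ppara.

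Gata6 (chromosome 18), Gata5 and Foxa1, transcription factor genes that act in gut epithelium, were among the 10 highest scores, with Tprn, Cnnm4, Tnrc18, Vcpip1, Irgm1 and Ugt2b35. The 10th, 2128 bp from the nearest coding gene end, that of Ttll10, held the 3 genes of the miR-200b cluster. Gata6 scored 2.15 and 2.04 in the AA libraries, against 1.56 and 1.51 in the vehicle libraries. Tprn, which encodes taperin, an actin-associated protein, scored 2.20 and 2.12 with AA, against 1.42 and 1.45 with vehicle. At both genes each AA library lay above both vehicle libraries.

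Gene groups differed widely in how often a domain held them. Of 24 signalling repressors and tumour suppressors 17 had an end in or near a domain, among them Trp53, Rb1, the cell cycle inhibitors Cdkn1a and Cdkn1b, Smad7 and the ERK pathway inhibitor Spry2. Of 30 genes of epithelial adhesion and cytoskeleton 19 did, including Epcam, Tjp1, Ocln, Vil1 and Ezr. Of 14 housekeeping genes 8 did, including Actb and Gapdh, so the domains were not limited to tissue-specific genes. Of 25 intestinal identity factors 14 did (56%), including Hnf4a, Cdx1, Klf5, Elf3 and Sox9, and another 6, among them Cdx2, Gata4, Foxa2, Prdm1 and Nr5a2, lay on broad peaks that overlapped H3K27me3. All these shares lay above the 13.2% of all coding genes.

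**Figure D2:**
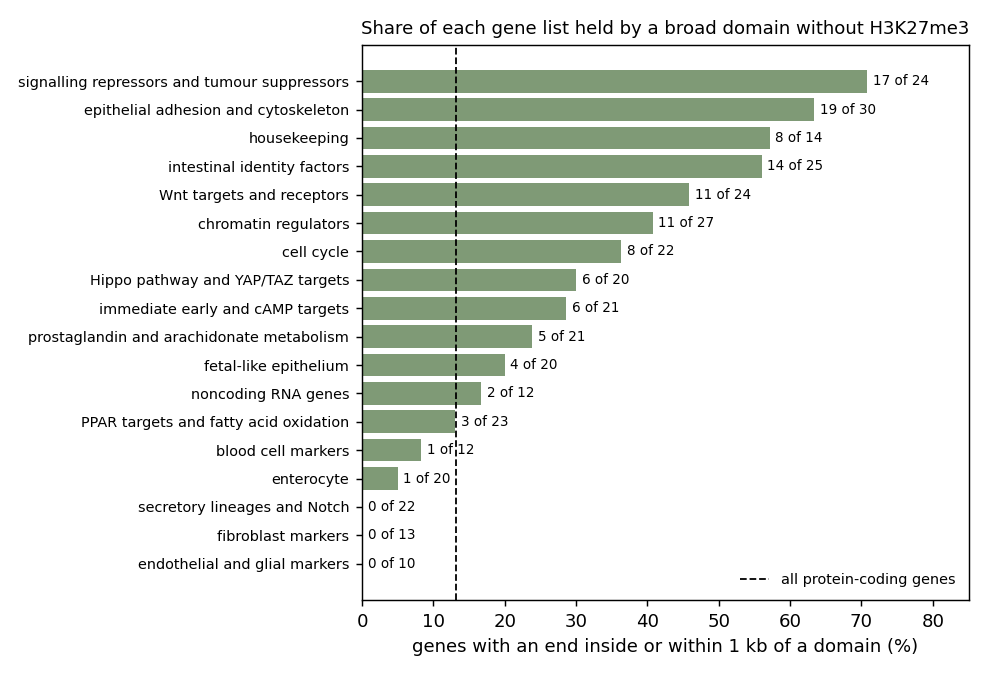
Share (%) of the matched genes of each of 18 lists with an end inside or within 1 kb of a domain; the counts stand beside the bars and the dashed line marks all protein-coding genes (13.2%). Signalling repressors (17 of 24) and epithelial adhesion (19 of 30) stand at the top, and secretory lineages (0 of 22) and fibroblast markers (0 of 13) at the bottom.

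Few genes of the secretory and enterocyte lists were held. Among secretory lineage and Notch genes the count was 0 of 22, although 6 of them, Atoh1, Gfi1, Dll1, Dll4, Hes1 and Notch1, lay on broad peaks with H3K27me3. Of 20 enterocyte genes only Slc5a1, the sodium-glucose transporter, was held. The domains held 11 of 24 Wnt targets and receptors, including Myc, Sox9, Ctnnb1, Apc and the stem cell receptors Lgr4 and Fzd5, while Lgr5, Axin2, Ascl2 and Rnf43 lay on broad peaks with H3K27me3. Counts were 11 of 27 for chromatin regulators, 8 of 22 for cell cycle genes, 6 of 20 for the Hippo pathway and YAP targets, 6 of 21 for immediate early genes, 5 of 21 for prostaglandin and arachidonate metabolism and 4 of 20 for the fetal-like epithelial program. PPAR targets had 3 of 23 and noncoding RNA genes 2 of 12, Malat1 and Snhg1. Fibroblast markers had 0 of 13, endothelial and glial markers 0 of 10, and blood cell markers 1 of 12, Cd68, in a domain that also holds the ends of Eif4a1 and Mpdu1. Lists were chosen with results of these data known, and no test was made on them.

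With AA, H3K4me3 was higher at 141 domains (6.03%) and lower at 27 (1.15%) by limma with Benjamini-Hochberg adjustment over all 58548 H3K4me3 peaks, at a threshold of 0.05. Of all those peaks, 1.54% were called higher and 1.38% lower. The called rises had a median change of 0.50 and ranged between 0.38 and 1.48 (log2 of score plus a pseudocount of 0.0253), and the called falls had a median of -1.03 and ranged between -1.78 and -0.47. At every one of these 168 domains the 2 AA libraries lay on one side of the 2 vehicle libraries. Over all domains, both AA libraries lay above both vehicle libraries at 1487 (63.6%) and below at 232 (9.92%), against 18.3% and 30.5% of all H3K4me3 peaks. The median change was 0.23 over the domains and -0.19 over all peaks. It was 0.44 and 0.025 with each library centred on its median, 0.0070 and -0.034 after quantile normalization and 0.073 and -0.34 with centring on the strongest 25% of peaks. On simulated data this H3K4me3 test made more false calls than its threshold allows, so more of the calls for this mark may be false than the threshold states.

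The number and the balance of the calls depended on scaling and on single libraries. Quantile normalization gave 54 higher and 143 lower, centring each library on its strongest 25% of peaks gave 244 and 151, and centring on its median gave 1087 and 20. Under all 3 of these scalings 46 of the 141 rises and 20 of the 27 falls were called again. Without vehicle replicate 1, and likewise without vehicle replicate 2, the counts were 1 higher and 0 lower, and the domain left in both fits was that of Gcnt3. Without AA replicate 1 they were 383 and 150, and without AA replicate 2 they were 1225 and 49. Limma without its trend and robust options called 0 in either direction, with 53 domains at an unadjusted p under 0.05. In none of these fits did a called domain change sign.

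The largest rise was at Gcnt3, which encodes a branching enzyme of mucin-type O-glycans made in gut epithelium. Its domain (chr9:70030617-70040491 in mm10, 9875 bp) scored 1.23 and 1.03 in the AA libraries, against 0.402 and 0.372 in the vehicle libraries. Both AA libraries stood far above both vehicle libraries, with a change of 1.48 ± 0.19 (log2, SE; limma adjusted p = 3.80e-12). The call was kept with any 1 library left out, where the adjusted p was at most 0.00368 in limma and the lone library of a group was assumed to vary like the other group, but it was lost in limma without trend and robust options. Capg, a gelsolin family protein that caps actin filaments, scored 0.558 and 0.412 with AA, against 0.182 and 0.173 with vehicle. The groups lay apart, and the change was 1.31 ± 0.29 (limma adjusted p = 0.00168).

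Areg, Plaur, Tnk2 and Gsta1 were also among the 10 largest rises. Areg encodes the EGF receptor ligand amphiregulin, and its domain scored 0.941 and 0.857 in the AA libraries, against 0.508 and 0.420 in the vehicle libraries (0.92 ± 0.19, limma adjusted p = 3.45e-04). Plaur, the urokinase receptor, scored 0.633 and 0.710 with AA, against 0.354 and 0.388 with vehicle (0.81 ± 0.22, limma adjusted p = 0.0159). At both genes every AA library lay above every vehicle library. They are on the fetal-like list, where 2 of 4 domains were called higher, while Anxa2 (0.19) and the domain holding Tnfrsf12a (0.30) did not pass. Tnk2, a CDC42-activated tyrosine kinase, changed by 0.95, with scores of 0.857 and 0.796 with AA and 0.445 and 0.389 with vehicle. Gsta1, a glutathione transferase, changed by 0.92, with scores of 0.661 and 0.726 with AA and 0.362 and 0.348 with vehicle. The remaining 4 of the 10 were a domain at the predicted gene 2210407C18Rik (1.17), one 8933 bp wide whose nearest named gene is Zfp184 (0.91), one in the body of Hnf4g, the intestinal HNF4 paralogue (0.88), and one in the body of Tns3, an adhesion protein gene (0.83). In all 10 the groups lay apart.

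**Figure D3:**
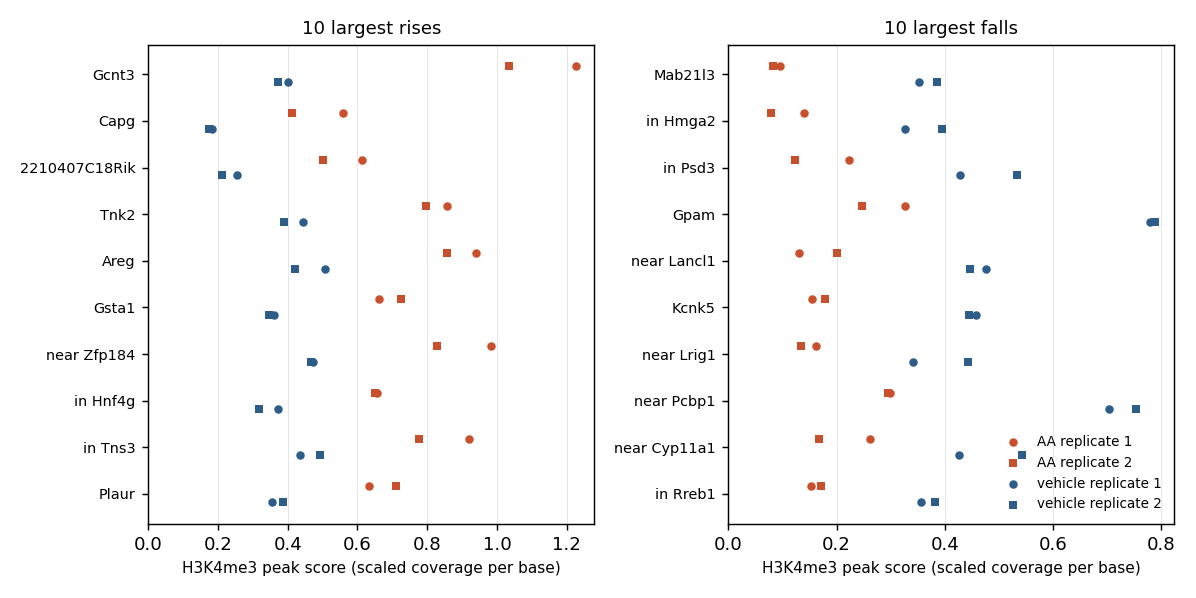
H3K4me3 peak score (scaled coverage per base) of each library at the 10 largest called rises (left) and the 10 largest called falls (right); orange points are the 2 AA libraries and blue points the 2 vehicle libraries. Gcnt3 stands at 1.23 and 1.03 with AA against 0.402 and 0.372 with vehicle, and Mab21l3 at 0.0954 and 0.0832 against 0.353 and 0.385.

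The largest fall was at Mab21l3, a gene of the Mab-21 family. Its domain (chr3:101830301-101836988 in mm10, 6688 bp) scored 0.0954 and 0.0832 in the AA libraries, against 0.353 and 0.385 in the vehicle libraries. Both AA libraries lay far below both vehicle libraries, with a change of -1.78 ± 0.38 (limma adjusted p = 6.36e-04). Gpam encodes the mitochondrial glycerol-3-phosphate acyltransferase, which starts triglyceride synthesis, and scored 0.326 and 0.247 with AA, against 0.780 and 0.789 with vehicle. The groups again lay apart, with a change of -1.39 ± 0.22 (limma adjusted p = 7.42e-07). The lowest unscaled coverage of any domain was 0.574 and 0.611 in the AA libraries and 2.85 and 2.09 in the vehicle libraries, so the lowest AA scores rest on few reads.

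Most falls lay away from gene ends. Of the 27, 18 had no coding gene end within 1 kb, against 11 of the 141 rises and 301 of all 2339 domains. Among the 10 largest were domains in the bodies of Hmga2 (-1.55), Psd3 (-1.39) and Rreb1 (-1.08), and others whose nearest gene ends were those of Lancl1 (-1.37), Lrig1 (-1.26), Pcbp1 (-1.22) and Cyp11a1 (-1.11). Kcnk5, a potassium channel gene, changed by -1.32 at a domain on its far end. The domain in Hmga2, which encodes a chromatin architectural protein of growing tissues, scored 0.141 and 0.0787 with AA, against 0.326 and 0.395 with vehicle. The domain 23321 bp from Pcbp1 scored 0.299 and 0.294 with AA, against 0.703 and 0.753 with vehicle. In both, no AA library reached a vehicle library.

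Of the 9 falls at gene ends, Npc1l1, Cyp2c55 and Sema7a were singled out after their values were seen. Npc1l1, the intestinal cholesterol uptake transporter, scored 0.481 and 0.391 in the AA libraries, against 0.717 and 0.789 in the vehicle libraries (-0.76, limma adjusted p = 0.0144). Cyp2c55, a cytochrome P450 that oxidizes arachidonic acid in mouse, scored 0.327 and 0.304 with AA, against 0.654 and 0.699 with vehicle (-1.04, limma adjusted p = 0.00114). At these 2 genes and at Gpam both AA libraries were the low ones. The widest domain that fell was Sema7a, a semaphorin gene, at 19624 bp. Sema7a scored 0.860 and 0.676 with AA, against 1.31 and 1.25 with vehicle, a change of -0.73 (limma adjusted p = 2.35e-04).

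Domains with a gene end had more positive changes than those without. Those with one had a median change of 0.25, with 130 called higher (6.38%) and 9 lower (0.442%). Those without one had a median change of -0.18, with 11 higher (3.65%) and 18 lower (5.98%). The medians were 0.46 and 0.032 with each library centred on its median, 0.019 and -0.17 after quantile normalization and 0.091 and -0.34 with centring on the strongest peaks. The median score was 0.847 with a gene end and 0.449 without, and over all domains the change followed the score with a Spearman rho of 0.48 across domains, which share libraries. The part of the level in this difference was not tested. Taken per library, the median log2 score with a gene end minus that without was 1.01 and 1.12 in the AA libraries and 0.70 and 0.62 in the vehicle libraries. Both AA values lay above both vehicle values, by 0.41 on average, and the two-sided exact permutation test gave p = 0.333, the smallest that 2 against 2 libraries allow.

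Width made little difference to the change. Domains of 6000 to 8000 bp had a median change of 0.24 and those of 8000 to 12000 bp of 0.22, while the 170 domains of 12000 bp or more had 0.20. The share called in either direction was 7.61%, 6.25% and 7.65% in these classes. Over all domains the Spearman rho of width and change was -0.06.

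Of the intestinal identity factor domains 3 of 14 passed the test, all higher, beside 6.03% of all domains and 1.54% of all H3K4me3 peaks called higher. The 14 changes lay between 0.08 and 0.62 with a median of 0.28. All were positive, as with median centring, beside 82.0% of all domains. After quantile normalization 7 were positive (median -0.0093), and 10 with centring on the strongest peaks (0.12). The median score of the 14 was 1.13, against 0.819 over all domains, and the part of the level was not tested. Gata5 scored 2.09 and 1.80 in the AA libraries, against 1.29 and 1.22 in the vehicle libraries (0.62 ± 0.11, limma adjusted p = 3.21e-05). The domain of Foxa1, shared with Ttc6, scored 1.93 and 1.84 with AA, against 1.32 and 1.27 with vehicle (0.53 ± 0.11, limma adjusted p = 6.22e-04). Gata6, whose scores are given above, changed by 0.44 ± 0.10 (limma adjusted p = 0.00362). At all 3 the groups lay apart. The other 11 included Hnf4a (0.08), Klf5 (0.15), Sox9 (0.28) and Ehf (0.42).

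Of the epithelial adhesion domains 4 of 19 passed, all higher, beside the same 6.03% of all domains. The summed score of the epithelial markers, given above, was higher in both AA libraries. It is not a separate observation, because Epcam, Vil1, Krt18 and Krt19 are in both sets. The part of the cell makeup here was not tested. The 4 domains that passed were Tjp1, the tight junction scaffold ZO-1 (0.57), Itga3, an integrin subunit that binds laminin (0.51), Esrp2, an epithelial splicing regulator (0.45), and Ezr, the microvillus linker ezrin (0.43). Tjp1 scored 1.25 and 1.04 in the AA libraries, against 0.804 and 0.722 in the vehicle libraries, and Ezr scored 1.63 and 1.25 with AA, against 1.11 and 0.991 with vehicle. Each AA library lay above each vehicle library at both genes. The median change of the 19 was 0.35, with all 19 above 0, beside 82.0% of all domains. It was 0.092 with 14 above 0 after quantile normalization. Of the 4 calls, that of Tjp1 was made again under all 3 other scalings, and those of Itga3, Esrp2 and Ezr were not. The median score of the 19 was 0.997, against 0.819 over all domains, and the part of the level was not tested.

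In the other lists 0 to 2 domains passed, all of them higher, as were 141 of the 168 calls over all domains, so these counts say little about the lists. Wnt targets had 1 of 12 domains, Cd44, an adhesion receptor marking crypt cells, with scores of 1.03 and 0.996 in the AA libraries and 0.680 and 0.640 in the vehicle libraries (0.60, limma adjusted p = 0.0191). The Hippo list had 1 of 6, Ajuba, a LIM protein that restrains LATS kinases (0.59), while Yap1 (0.37) and Lats1 (0.30) did not pass. Signalling repressors had 2 of 17, Spry2 (0.56) and Trp53, which shares its domain with Wrap53 (0.49). The cell cycle list had 1 of 8, Cdk6 (0.50). At Cd44, Ajuba, Spry2, Trp53 and Cdk6 the AA libraries were the higher ones without overlap.

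Prostaglandin and arachidonate genes had 1 of 5 domains called. It was that of Mboat7, an acyltransferase that places arachidonate in phosphatidylinositol, shared with Tsen34, with scores of 1.20 and 1.25 in the AA libraries and 0.941 and 0.825 in the vehicle libraries (0.47, limma adjusted p = 0.0434). Ptger4, a PGE2 receptor gene, scored 1.37 and 1.30 with AA, against 1.04 and 1.04 with vehicle, with no overlap but a change of 0.35 that did not pass (limma adjusted p = 0.126). The acyl-CoA synthetase genes Acsl5 (0.30) and Acsl3 (0.26) and the PGE synthase gene Ptges3 (0.30) did not pass. Neither of the 2 PPAR domains passed, and that of Hadha with Hadhb, subunits of the mitochondrial trifunctional protein, changed by 0.33. Of immediate early genes 0 of 6 passed, with Jun at 0.08 and Fosl2 at 0.43. None of the 12 chromatin regulator domains passed, and the highest was the PRC2 cofactor Jarid2 at 0.53 (limma adjusted p = 0.0513). Housekeeping domains had 0 of 8, among them Actb at -0.02 and Gapdh at 0.17. In the noncoding list Malat1 (0.43) and the domain holding Snhg1 (0.40) did not pass.

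Domains that hold miRNA genes had a median change of 0.24, between -0.72 and 0.50, with 2 of 37 called higher and 1 lower, near the 6.03% and 1.15% of all domains. The domain of the miR-200b cluster (chr4:156052945-156061573 in mm10) scored 1.91 and 1.83 in the AA libraries, against 1.39 and 1.41 in the vehicle libraries. Both AA libraries lay above both vehicle libraries, and the change was 0.41 ± 0.11 (limma adjusted p = 0.0165). The domain of Mir192 and Mir194-2, at the far end of Atg2a, scored 1.26 and 1.18 with AA, against 0.998 and 0.947 with vehicle, and did not pass (0.32, limma adjusted p = 0.201). The domain of Mir194-1 and Mir215, in Iars2, scored 0.817 and 0.629 with AA, against 0.674 and 0.693 with vehicle, with groups that overlapped (0.07). The domain that was lower lay in F5 (-0.72).

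How many domains carried H3K27ac depended on the peak caller. An H3K27ac peak of SEACR overlapped 2337 of the 2339 (99.9%, 95% Clopper-Pearson interval 99.7% to 100.0%, counting error only), and the exceptions were Ldb1 and L3mbtl3. An H3K27ac peak of MACS2 overlapped 42.2%. SEACR peaks were used for what follows. Most domains, 1455, held 1 such peak, 736 held 2 and 146 held 3 or more. A domain was covered to a median of 89.3% by them, and 1127 domains (48.2%) were covered to 90% or more. These 3360 H3K27ac peaks had a median width of 5098 bp and score of 0.305, against 2128 bp and 0.178 over all H3K27ac peaks. Domains without a gene end were covered to a median of 97.9%, and those with one to 88.0%.

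With AA, 5 of the 3360 H3K27ac peaks in domains were called higher (0.149%) and 0 lower by limma with Benjamini-Hochberg adjustment over all 62547 H3K27ac peaks. Over all those peaks 0.155% were called higher and 0.0448% lower, so the share of rises in domains was near the background. Without adjustment 367 peaks had a p under 0.05. The median change was 0.15 in domains and 0.11 over all peaks, and in domains it was 0.081 with each library centred on its median, 0.028 after quantile normalization and 0.010 with centring on the strongest peaks. Both AA libraries lay above both vehicle libraries at 1531 of the peaks and below at 142, against 28.5% and 10.7% of all peaks. There were 0 calls without AA replicate 1, 2 rises without AA replicate 2, 2 rises without vehicle replicate 1, and 6 rises and 2 falls without vehicle replicate 2. Limma without trend and robust options called 0, with 50 peaks at an unadjusted p under 0.05.

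The 5 peaks lay at Neo1, Csnk1g3, the domain nearest to Snx5, Anxa13 and C1galt1. The peak at Neo1, a receptor for netrin and RGM ligands, scored 0.572 and 0.383 in the AA libraries, against 0.195 and 0.196 in the vehicle libraries (1.02 ± 0.18, limma adjusted p = 1.17e-04). C1galt1, the core 1 synthase of mucin-type O-glycans, scored 0.666 and 0.456 with AA, against 0.279 and 0.393 with vehicle (0.63 ± 0.15, limma adjusted p = 0.0202). Anxa13, an annexin of intestinal epithelium, scored 0.752 and 0.658 with AA, against 0.445 and 0.414 with vehicle (0.63 ± 0.13, limma adjusted p = 0.00313). At these 3 genes the AA libraries lay above the vehicle libraries without overlap. Only at C1galt1 was the called peak the one with the largest overlap with its domain. The peaks with the largest overlap changed by 0.080 at Neo1, 0.096 at Csnk1g3, 0.32 near Snx5 and 0.29 at Anxa13. None of these passed the test. The calls were lost at Anxa13 in each of the 4 fits with a library left out, and at C1galt1 in all but one of them.

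C1galt1 and Anxa13 were the domains called in both marks. At Anxa13 the H3K27ac call was in a peak other than the one with the largest overlap. H3K4me3 at C1galt1 was 1.67 and 1.31 in the AA libraries, against 1.02 and 1.06 in the vehicle libraries (0.50 ± 0.13, limma adjusted p = 0.0115). At Anxa13 it was 1.12 and 1.18 with AA, against 0.871 and 0.766 with vehicle (0.48 ± 0.15, limma adjusted p = 0.0451). In both domains the AA libraries were the higher ones. Those H3K4me3 calls too were lost without either vehicle replicate.

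Across the domains the 2 marks changed together only weakly, with a Pearson r of 0.20 and a Spearman rho of 0.18 over 2337 domains, as a description of domains that share libraries. For each domain the H3K27ac peak with the largest overlap was used. At the 141 domains with higher H3K4me3 the median H3K27ac change was 0.21, with 134 above 0. At the 2171 domains without a call it was 0.16, with 1896 above 0 of the 2169 that held an H3K27ac peak. At the 27 domains with lower H3K4me3 it was 0.03, and 19 of the 27 were above 0. Gpam is an example, with H3K27ac scores of 0.218 and 0.264 in the AA libraries, against 0.243 and 0.235 in the vehicle libraries, where the groups overlapped. Mab21l3 had 0.251 and 0.135 with AA, against 0.221 and 0.275 with vehicle, which also overlapped (-0.31). Per library, the median log2 H3K27ac of the risen minus that of the fallen domains was 0.27 and 0.22 with AA and 0.16 and 0.08 with vehicle. The difference between treatments was 0.12, with p = 0.333 in the two-sided exact permutation test.

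**Figure D4:**
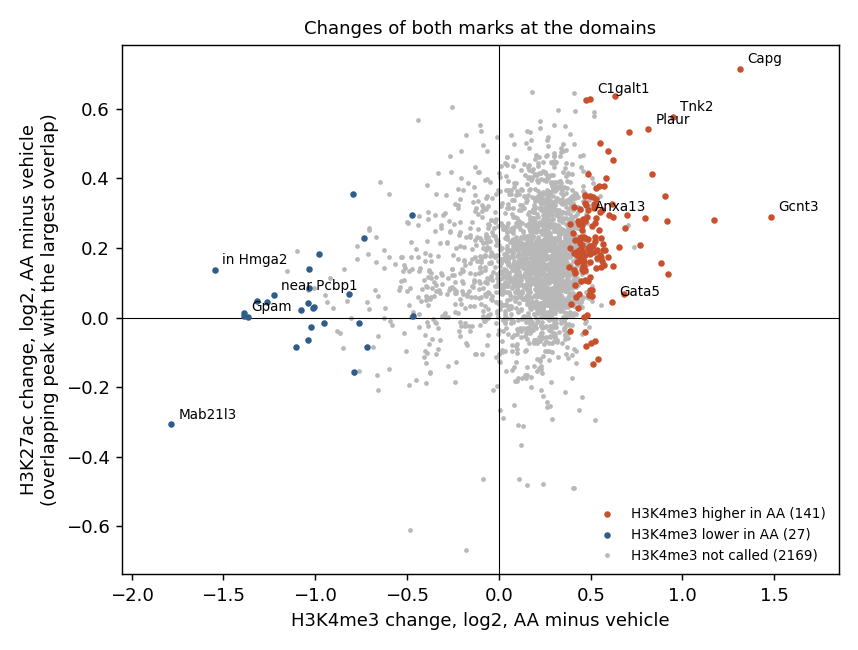
Change of H3K4me3 (x axis) and of H3K27ac in the overlapping peak with the largest overlap (y axis), both log2 and AA minus vehicle, for 2337 domains; colours mark the H3K4me3 calls. The 27 domains with lower H3K4me3 lie around 0 for H3K27ac, with a median of 0.03, and those with higher H3K4me3 have a median of 0.21.

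The domains were set against other H3K4me3 peaks in each library, to see whether the shift with AA was their own. Compared with 2748 gene-end peaks of 1000 to 3000 bp without H3K27me3, the domains' median log2 H3K4me3 was higher by 1.68 and 1.77 in the AA libraries and by 1.42 and 1.39 in the vehicle libraries. The gap was wider in both AA libraries, by 0.32 on average. Compared with 4621 such peaks of 3000 to 6000 bp it was 0.03 and 0.05 with AA and 0.06 and 0.07 with vehicle, a difference of -0.022. These peaks had a median score of 0.791, close to the 0.819 of the domains, and a median change of 0.24, with 6.69% called higher and 0.909% lower. Within the interquartile range of the domains' levels the difference was -0.028. Each of these contrasts had p = 0.333 in the two-sided exact permutation test, the smallest that 4 libraries allow. The direction of the contrast thus turned with the peaks chosen for comparison.

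**Figure D5:**
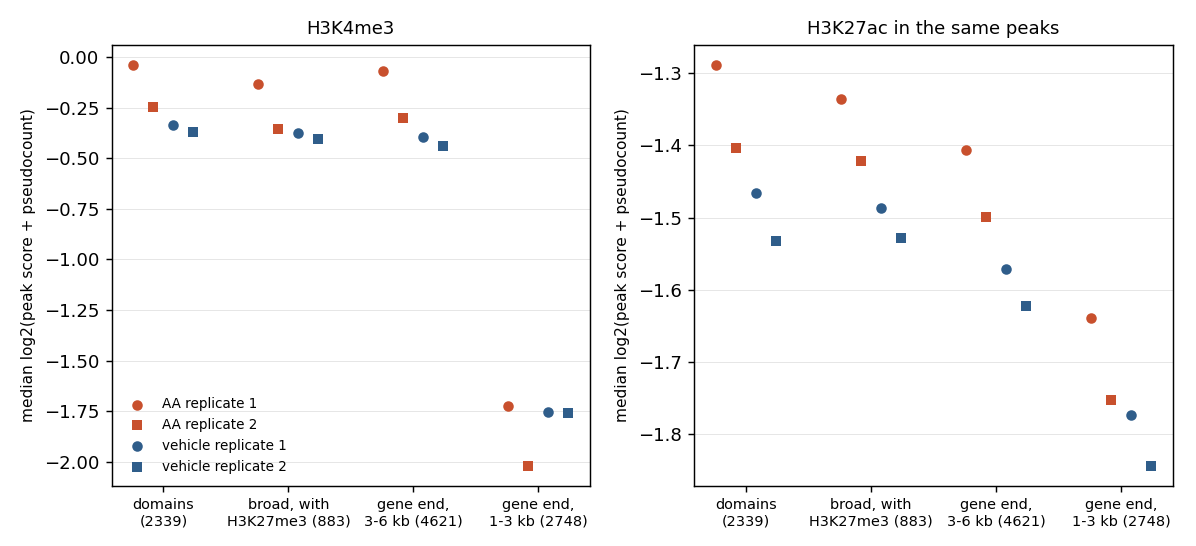
Median log2(peak score + pseudocount) of H3K4me3 (left) and of overlapping H3K27ac peaks (right) in each library, for the domains, broad peaks with H3K27me3 and gene-end peaks of 3 to 6 kb and 1 to 3 kb; orange is AA and blue is vehicle. The domains and the gene-end peaks of 3000 to 6000 bp shift alike with AA in H3K4me3, and the peaks of 1000 to 3000 bp do not.

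Broad peaks with H3K27me3 were the set of like width. Their median score was 0.777 and their median H3K4me3 change 0.16, with 52 of 883 called higher (5.89%) and 25 lower (2.83%). The domains' median log2 H3K4me3 exceeded theirs by 0.10 and 0.11 in the AA libraries and by 0.04 and 0.03 in the vehicle libraries, a difference of 0.067 (two-sided exact permutation p = 0.333). An H3K27ac peak overlapped 96.0% of them, 96.8% of the gene-end peaks of 3000 to 6000 bp and 65.9% of those of 1000 to 3000 bp, against 99.9% of the domains. In H3K27ac the treatment differences of the domains against these sets were 0.025, 0.0095 and 0.041, with exact permutation p-values of 0.667, 0.667 and 0.333.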

How the data were processed

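CUT&RUN libraries of H3K4me3, H3K27ac and H3K27me3, 12 in all with 2 per treatment and mark, were analysed. The deposited signal is a peak score; SEACR and MACS2 peaks on mm10 came from the authors, per the submitters' processing notes, with versions, the aligner and the scaling not given in the sources used here. Every peak of a mark has 1 score in each of its 4 libraries. Scores multiplied by peak width fell on whole steps of a library's own size (within 0.1 step, for at least 99.99% of values under 1000 steps), as a scaled mean coverage would, and dividing by that step gave the coverage printed.

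SEACR peaks were used, with an overlap of 1 bp or more. Limma 3.58.1 (R 4.3.3; trend and robust) was fitted for each mark on log2(score + pseudocount), AA minus vehicle, over all 58548 H3K4me3 or 62547 H3K27ac peaks. The pseudocount was the 5th percentile of positive scores (0.0253 for H3K4me3 and 0.0693 for H3K27ac). P-values were Benjamini-Hochberg adjusted at 0.05. The fit was tested on simulated data, where the H3K4me3 test made more false calls than its threshold allows. Contrasts of library medians used exact permutation tests. Depth and the number of libraries limit the precision.

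Gene ends, starts, promoters and miRNAs came from RefSeq tables of GRCm38.p6, the assembly of mm10. The promoter table is incomplete, and the gene table has no strand. Domains were named by genes with an end inside or within 1 kb, otherwise by the gene body or nearest end, by distance only. Starts in the promoter table counted as ends, except in distances to the nearest end. Named were the 10 widest, the 10 of highest score, the 10 largest called rises and falls, up to 5 called H3K27ac rises and falls, domains called in both marks and up to 4 per gene list. The members, the 18 lists and the tests were chosen with earlier results of these data known. List genes that did not match a gene on chromosomes 1 to 19 included Maoa, Acsl4, Kdm6a, Kdm5c, Hprt and Pgk1. Results for some genes are not reported here.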

Additional observations from a re-analysis of the deposited data

How the results depend on the processing

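Pseudocounts at the 1st and 25th percentile moved no count by over 1.5 times and lost none of the named calls. For H3K4me3, the counts higher and lower were 1087 and 20 with each library centred on its median (median change of domains 0.44), 54 and 143 after quantile normalization (0.0070), 244 and 151 with centring on the strongest 25% of peaks (0.073), 277 and 30 when only those peaks were tested, and 0 and 0 in limma without trend and robust. The 2 centrings removed offsets of AA minus vehicle of -0.21 and 0.16 for H3K4me3 and of 0.07 and 0.14 for H3K27ac. Removing a negative offset raises the changes, and removing a positive one lowers them. Leaving out 1 library gave 1 to 1225 higher and 0 to 150 lower, with median changes of 0.12 to 0.33. At a threshold of 0.01 there were 35 and 14, at widths of 5000 bp or more 236 and 50, and of 8000 bp or more 52 and 7. No MACS2 peak reached 6000 bp, the widest H3K4me3 one being 3578 bp, so the planned MACS2 domains could not be made. MACS2 peaks inside the domains, an alternative chosen after seeing the data, gave 916 and 100. For H3K27ac, called rises were 0 when the strongest 25% were tested, 0 without trend and robust, 1 at 8000 bp and 0 for MACS2 peaks in the domains, and called falls were 2 after quantile normalization, 2 with centring on the strongest peaks and 1 at 5000 bp. Leaving out 1 library gave 0 to 6 rises and 0 to 2 falls. The median H3K27ac change was 0.081 with median centring, 0.028 with quantiles, 0.010 with centring on the strongest peaks and 0.30 for MACS2 peaks. The share of domains with an H3K27ac peak was 98.1% when 50% of that peak had to overlap, 42.2% with MACS2 peaks, 99.6% at 5000 bp and 100% at 8000 bp. The contrast of -0.022 with gene-end peaks of 3000 to 6000 bp and that of -0.028 at equal levels, added after seeing the data, are opposite in sign to the 0.32 with narrower peaks. The cause of these shifts was not tested.

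The deviations of equally numbered libraries had correlations of -0.002 for H3K4me3 and 0.009 for H3K27ac over all peaks. Median unscaled coverage over all H3K4me3 peaks was only 1.37 to 3.38 per library. At such coverage noise can hide a shared deviation, so these values cannot tell whether the libraries are paired. A replicate block gave 280 H3K4me3 rises and 30 falls and 17 H3K27ac rises.

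Of the named domains without a call, some changed sign. Under quantile normalization the changes were -0.11 at Gata4, -0.19 at Krt19, -0.20 at Rgmb, -0.080 at Hnrnpu, -0.19 at Epb41l4b, -0.012 at Cdkn1b, -0.14 at Klf5, -0.034 at Brd2, -0.069 at Zfp36, -0.079 at Ephb3, -0.21 at Fzd5, -0.12 at Jun, -0.096 at Vgll4 and -0.076 at Irgm1. With centring on the strongest peaks they were -0.11 at Krt19, -0.027 at Rgmb, -0.14 at Epb41l4b, -0.11 at Spint2, -0.0080 at Klf5, -0.038 at Fzd5 and -0.080 at Jun. Median centring gave 0.11 at Picalm, 0.15 at Ero1a, 0.20 at Actb and 0.12 at the domain near Snx5. Leaving out 1 library gave -0.17 to 0.14 at Actb, -0.12 to 0.15 at Epb41l4b, -0.14 to 0.011 at Ero1a, -0.055 to 0.15 at Krt19, -0.24 to 0.029 at Picalm, -0.12 to 0.22 at Spint2 and -0.18 to 0.0050 at the domain near Snx5. Of the 40 named H3K4me3 calls, all 40 were lost in limma without trend and robust, 39 without either vehicle replicate, 10 after quantile normalization and 1 with median centring. Removing a domain only where H3K27me3 covered 10% of it changed no count by over 1.5 times.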
